A study of Mus musculus with 6 samples.

Results

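The genes described here encode the adhesion receptors that platelets carry on their surface and the chemokines that they store in granules, namely Selp, Ppbp, Pf4, Gp9, Gp1ba, Gp1bb, Gp5, Itga2b and Itgb3. Their members on the arrays were the probe sets, groups of short probes that read 1 transcript, whose platform annotation gives exactly 1 gene symbol out of these 9. There were 12 such probe sets among 45037 tested, covering 8 of the 9 genes, out of 18193 genes measured. Selp was read by 3 probe sets, Gp1bb and Itgb3 by 2 each and the other 5 genes by 1 each. Gp1ba was not analysed here because no probe set carried its symbol. A further probe set carries the symbols Septin5 and Gp1bb together, so it was no member, and its values stand beside those of Gp1bb.

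Expression was measured on 6 arrays of C6, a single clone of mouse haematopoietic progenitor cells of myeloid type on the Rosa26rtTA C57BL/6J background. All cells carried the vector pRRL.TET.Evi1.IRES.EGFP, in which doxycycline turns on a codon-optimized mouse Evi1, a zinc finger transcription factor, together with a green fluorescent protein. The 3 withdrawal arrays came from cells taken 48 h after doxycycline was removed, and the 3 doxycycline arrays from cells kept under 1 µg/ml of the drug. The S3F11 medium of both groups held 50 ng/ml each of stem cell factor, Flt3 ligand and interleukin 11, and 20 ng/ml of interleukin 3. The comparison asks what changes once the inducer of Evi1 is taken away from a clone that the labels call dependent on it. The samples are 1 clone. Nothing in the labels gives the replicates cultures of their own, so a p-value covers no more than the variation among these arrays, and that variation may be technical. Each array measures a whole culture, in which fewer cells of a type and less RNA per cell cannot be told apart.

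P-selectin, the product of Selp, waits in the alpha granules of platelets and moves to the surface on activation, where it binds leukocytes. Endothelial cells store it too. Gp1ba, Gp1bb, Gp9 and Gp5 encode the subunits of the glycoprotein Ib-IX-V complex, which catches platelets on von Willebrand factor at a wound. Itga2b and Itgb3 encode the chains of the integrin alpha IIb beta 3, the fibrinogen receptor that ties platelets together, and Itga2b is also known as an early marker of haematopoietic cells. Ppbp and Pf4 lie next to each other in a cluster of CXC chemokine genes and encode granule chemokines. These genes are best known from megakaryocytes, the precursors of platelets.

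After withdrawal the transcripts of Selp, Ppbp, Pf4 and Gp9 fell, and those of Gp5, Itga2b, Itgb3 and Gp1bb did not pass the test. Of the 12 probe sets 6 were lower and 0 higher at an adjusted p below 0.05 in limma, a linear model fitted to all probe sets at once, while 1.97% of all probe sets passed by the same rule, 1.18% lower and 0.790% higher. At an unadjusted p below 0.05, 8 of the 12 were lower and 3 higher, where 7.48% of all probe sets were lower and 6.85% higher, and with trend and robust options 1 was higher at an adjusted p below 0.05. Read by the brightest probe set of each gene, 4 of 8 genes passed, all lower, against 2.77% of 18193 genes in either direction and 1.57% lower, and the median difference was -0.47, against 0.01 over all genes. Differences are withdrawal minus doxycycline on the log2 scale, with the limma standard error over 3 arrays per group. Levels are log2 expression values.

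The arrays had medians from 5.22 to 5.27. On the second principal component, with 31.9% of the variance, withdrawal replicate 3 and doxycycline replicate 1 stood apart from the other arrays. Without both, 4 of the 12 member probe sets remained lower, those of Selp and Ppbp, and 94 probe sets of the series were lower, against 530 with all arrays.

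The promoters of the 4 genes that fell are shown because these genes moved together, from RefSeq on build GRCm38.p6, 250 bases before the start of transcription and 50 from it, written 5′ to 3′. Capitals mark the letters bound by GATA factors (AGATAA or AGATAG, and TGATAA or TGATAG) and by ETS factors (AGGAAG or CGGAAG), read on both strands, families that include regulators of megakaryocyte genes.
Selp promoter, chr1:164115014-164115313, + strand: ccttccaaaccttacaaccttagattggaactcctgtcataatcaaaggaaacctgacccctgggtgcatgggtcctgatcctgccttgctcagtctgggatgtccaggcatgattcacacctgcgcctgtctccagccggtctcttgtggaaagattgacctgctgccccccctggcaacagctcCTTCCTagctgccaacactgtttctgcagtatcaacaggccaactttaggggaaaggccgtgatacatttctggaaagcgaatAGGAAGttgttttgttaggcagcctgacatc
Ppbp promoter, chr5:90768268-90768567, + strand: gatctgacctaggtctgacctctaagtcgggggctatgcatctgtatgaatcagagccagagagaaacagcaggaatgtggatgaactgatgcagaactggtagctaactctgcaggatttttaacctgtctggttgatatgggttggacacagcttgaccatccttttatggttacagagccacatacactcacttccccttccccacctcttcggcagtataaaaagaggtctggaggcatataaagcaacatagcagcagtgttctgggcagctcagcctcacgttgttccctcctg
Pf4 promoter, chr5:90772185-90772484, + strand: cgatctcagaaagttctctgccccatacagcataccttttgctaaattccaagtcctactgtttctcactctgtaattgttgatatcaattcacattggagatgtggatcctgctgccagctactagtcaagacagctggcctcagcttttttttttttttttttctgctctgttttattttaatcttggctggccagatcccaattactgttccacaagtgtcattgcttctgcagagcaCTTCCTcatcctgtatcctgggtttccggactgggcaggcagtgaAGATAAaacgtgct
Gp9 promoter, chr6:87777820-87778119, + strand: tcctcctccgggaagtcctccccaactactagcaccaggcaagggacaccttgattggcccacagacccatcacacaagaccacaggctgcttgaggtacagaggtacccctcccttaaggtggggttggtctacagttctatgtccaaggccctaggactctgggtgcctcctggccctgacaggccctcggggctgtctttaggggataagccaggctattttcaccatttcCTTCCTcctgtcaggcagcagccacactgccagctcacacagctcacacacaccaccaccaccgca
The ETS letters searched stand in the windows of Selp, Pf4 and Gp9, and the GATA letters searched in that of Pf4. Neither set is in that of Ppbp, and other forms of ETS or GATA letters were not searched. Of 8 members with a promoter in the table, Itgb3 being the one without, 7 hold the ETS letters and 4 the GATA letters, against 46.5% and 29.8% of 32851 promoters of the same length. The 4 with GATA letters are Pf4, Gp1ba, Gp1bb and Gp5, of which Pf4 fell. The letters GACAAGATA and GAAGATGAG, known from the first and the second finger domain of Evi1, were searched on both strands as well. GACAAGATA overlaps the GATA letters where an A or G follows it. Each is in 0 of 8 member promoters and in 0.119% and 0.399% of all promoters. The RUNX letters TGTGGT or TGCGGT are in 1 of 8, that of Gp9, and in 22.4% of all. A match describes the letters and is not a measured binding site.

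Selp had the largest difference of the group. On its brightest probe set, 1420558_at, the log2 levels were 5.96, 5.96 and 5.94 on the withdrawal arrays, against 8.77, 8.67 and 8.73 on the doxycycline arrays. The gap of 2.71 between the groups was far wider than the spread within them, which was 0.03 and 0.10. The difference was -2.77 ± 0.06 (limma adjusted p = 2.9e-06), a 6.82-fold lower level with a 95% confidence interval from 6.16 to 7.55. Only 5 of the 45037 probe sets had a more negative difference.

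The other Selp probe sets also fell, by smaller amounts. Probe set 1449906_at read 4.65, 4.68 and 4.37 after withdrawal, against 6.10, 6.11 and 6.07 under doxycycline, a difference of -1.53 ± 0.09 (limma adjusted p = 0.000488). Probe set 1440173_x_at, whose name marks probes that may also bind other transcripts, read 3.34, 3.56 and 3.44, against 4.95, 4.88 and 5.21 under doxycycline, a difference of -1.56 ± 0.10 (limma adjusted p = 0.000603). The groups do not overlap on any Selp probe set. The folds on these dimmer probe sets were 2.88 and 2.95, and the mean of the 3 probe sets differed by -1.95, so the size of the fall depends on the probe set read. After withdrawal these dimmer probe sets lay at the 39.5th and 17.4th percentile of all probe sets. The 3 calls held in each fit that left out 1 array.

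**Figure D1:**
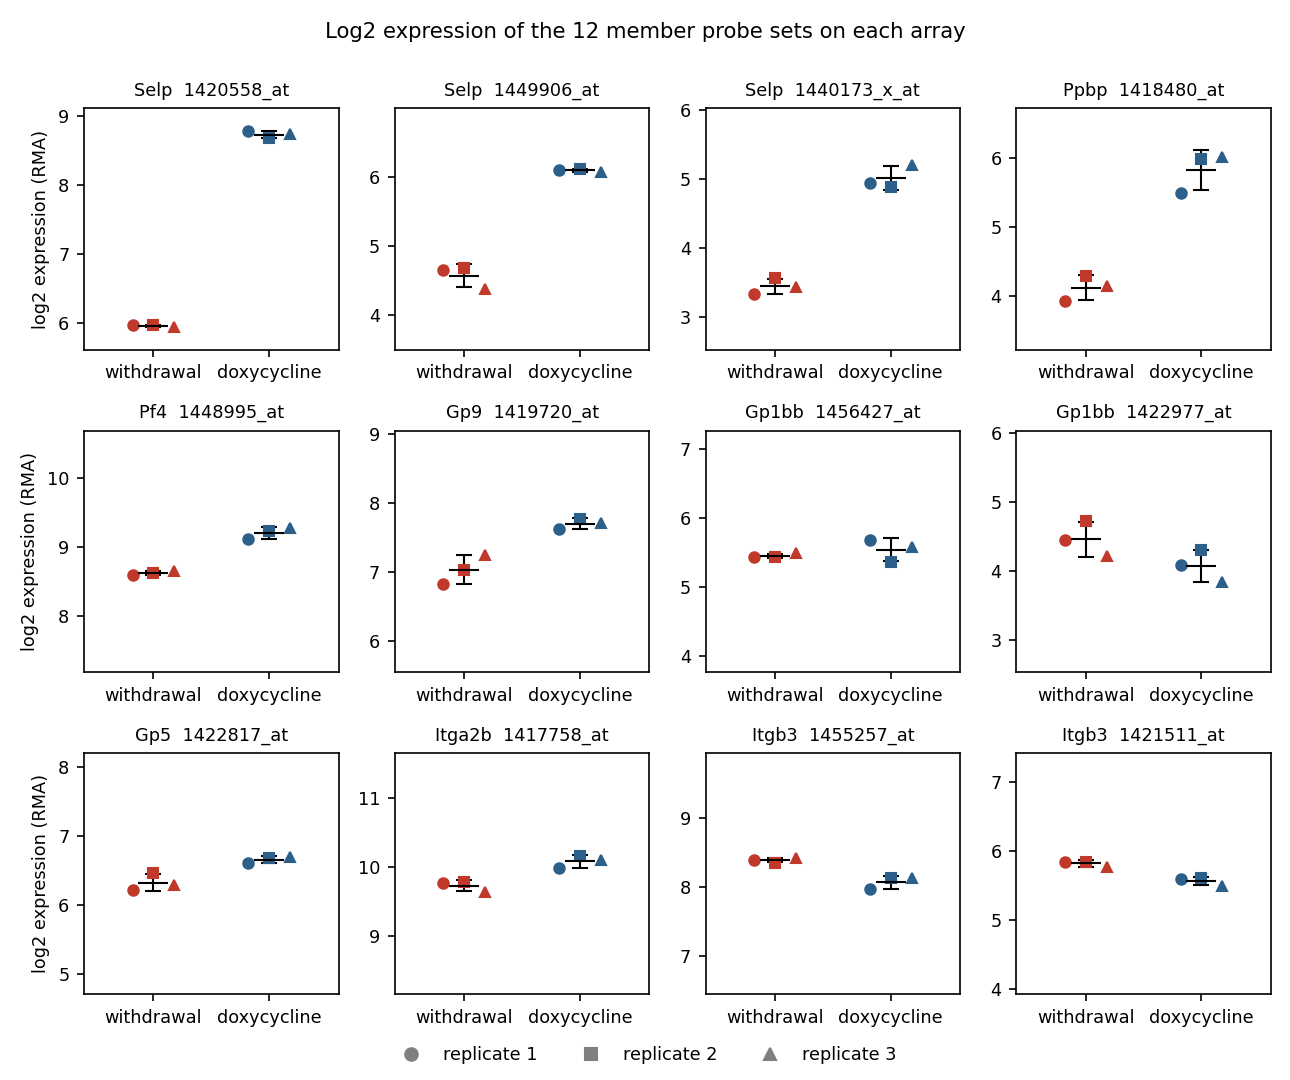
Log2 expression on each array for the 12 probe sets, withdrawal to the left and doxycycline to the right in each panel, with every panel spanning the same 3.5 log2 units. Symbols are replicates, bars are the mean and SD (n = 3), and the groups lie farthest apart on Selp 1420558_at, with means of 5.95 and 8.72.

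Ppbp, which encodes a precursor of neutrophil-attracting chemokines including CXCL7, fell to dim levels. Its only probe set read 3.93, 4.29 and 4.14 after withdrawal, against 5.50, 5.98 and 6.01 under doxycycline. Every withdrawal array was below every doxycycline array, with a gap of 1.20, and doxycycline replicate 1 was the lowest of its group. The difference was -1.71 ± 0.16 (limma adjusted p = 0.00262). The nominal 3.26-fold is uncertain because the withdrawal level lay at the 31.3rd percentile of all probe sets, near the floor of the arrays.

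Pf4, platelet factor 4, a chemokine that binds heparin, was bright in both groups and moved less. Its log2 levels were 8.59, 8.62 and 8.65 after withdrawal, against 9.11, 9.23 and 9.28 under doxycycline. The groups were separated by 0.47, more than the range of either (0.06 and 0.17). The difference was -0.59 ± 0.07 (limma adjusted p = 0.00807), a 1.50-fold lower level with a 95% interval from 1.34 to 1.69. The call was lost without doxycycline replicate 2 (adjusted p = 0.0535) or 3 (adjusted p = 0.0529), and with both arrays that stood apart left out (adjusted p = 0.0737), with differences of -0.58, -0.55 and -0.65.

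The neighbouring chemokine genes were also set against each other. Within each array the log2 value of Ppbp minus that of Pf4 ran from -4.66 to -4.33 after withdrawal and from -3.62 to -3.25 under doxycycline, a change of -1.12, which shows unequal change only. This ratio was compared by a two-sided exact permutation test over the 6 arrays, which gave p = 0.1, the smallest that 3 against 3 allows. Altogether 5 such pairs were compared, and none can reach 0.05 at this size. Of the other 5 genes measured in the chemokine cluster (Cxcl5, Cxcl15, Cxcl3, Cxcl2 and Cxcl1), 0 passed in limma, and 0 had an unadjusted p below 0.05. The shares of all genes in either direction were 2.77% and 16.3%. Cxcl15 had the widest difference there, 0.28 ± 0.12, at a mean level of 4.45 after withdrawal and 4.17 under doxycycline. Cxcl5, which stands beside Ppbp, was near the floor in both groups, at 2.64 and 2.74, and so was Cxcl3, at 2.83 and 3.00. In both groups 3 of these 5 genes lay below the median level of all probe sets, which limits what a fall could show.

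Of the von Willebrand factor receptor, the probe set of Gp9, which stabilises the complex on the surface, fell, a call that most fits with 1 array left out did not keep. Its log2 levels were 6.82, 7.02 and 7.24 after withdrawal, against 7.62, 7.77 and 7.70 under doxycycline. The groups do not overlap, but the withdrawal arrays spread over 0.42 and the gap was 0.38. The difference was -0.67 ± 0.11 (limma adjusted p = 0.0309), a 1.59-fold lower level with a 95% interval from 1.33 to 1.90. Withdrawal replicate 3 lay closest to the doxycycline arrays, and leaving it out was the only one of 6 such fits that kept the call (difference -0.78, adjusted p = 0.0183). Without any of the other 5 arrays the adjusted p was between 0.0561 and 0.132, and with both arrays that stood apart left out the difference was -0.82 with an adjusted p of 0.0825.

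Gp5, the subunit that thrombin cleaves, read 6.21, 6.46 and 6.29 after withdrawal, against 6.60, 6.67 and 6.69 under doxycycline. The groups were 0.13 apart, less than the range of 0.25 among the withdrawal arrays. The difference was -0.33 ± 0.08 with a 95% interval from -0.52 to -0.14, and it did not pass (limma adjusted p = 0.111). It passed above the median level (adjusted p = 0.0412) and, averaging over probe sets aside, in none of the other alternatives run. With the probe sets of each gene averaged, Gp5, Itga2b or both were lower, and which of them was not resolved.

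Gp1bb encodes the chain that is joined to the product of Gp1ba by a disulphide bond, and neither of its probe sets passed. Probe set 1456427_at read 5.44, 5.44 and 5.49 after withdrawal, against 5.68, 5.36 and 5.59 under doxycycline, so the groups overlap (-0.09 ± 0.09, limma adjusted p = 0.753, 95% interval -0.30 to 0.13). The average of both Gp1bb probe sets differed by 0.15 ± 0.08 (limma adjusted p = 0.386), the opposite sign. Probe set 1422977_at read 4.45, 4.73 and 4.22, against 4.09, 4.31 and 3.85 under doxycycline, with overlap as well (0.38 ± 0.15, limma adjusted p = 0.322). The probe set with both Septin5 and Gp1bb as symbols was brighter, at 7.93, 7.91 and 7.50 after withdrawal, against 6.93, 7.35 and 7.08 under doxycycline. Its groups do not overlap, and its difference of 0.66 ± 0.15 did not pass (limma adjusted p = 0.0803). It passed with array weights, with trend and robust options, above the median level, after repeated quantile normalization and without withdrawal replicate 3. Septin5 lies next to Gp1bb in the genome, and which of these transcripts the probe set reads was not tested.

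The subunits of the complex were compared within arrays, where Gp9 minus Gp1bb (1456427_at) ran from 1.38 to 1.75 after withdrawal and from 1.94 to 2.41 under doxycycline (two-sided exact permutation p = 0.1). Gp9 minus Gp5 ran from 0.56 to 0.95 after withdrawal and from 1.01 to 1.10 under doxycycline (two-sided exact permutation p = 0.1), a smaller change of -0.34. For Gp5 minus Gp1bb the groups overlap (two-sided exact permutation p = 0.2).

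**Figure D2:**
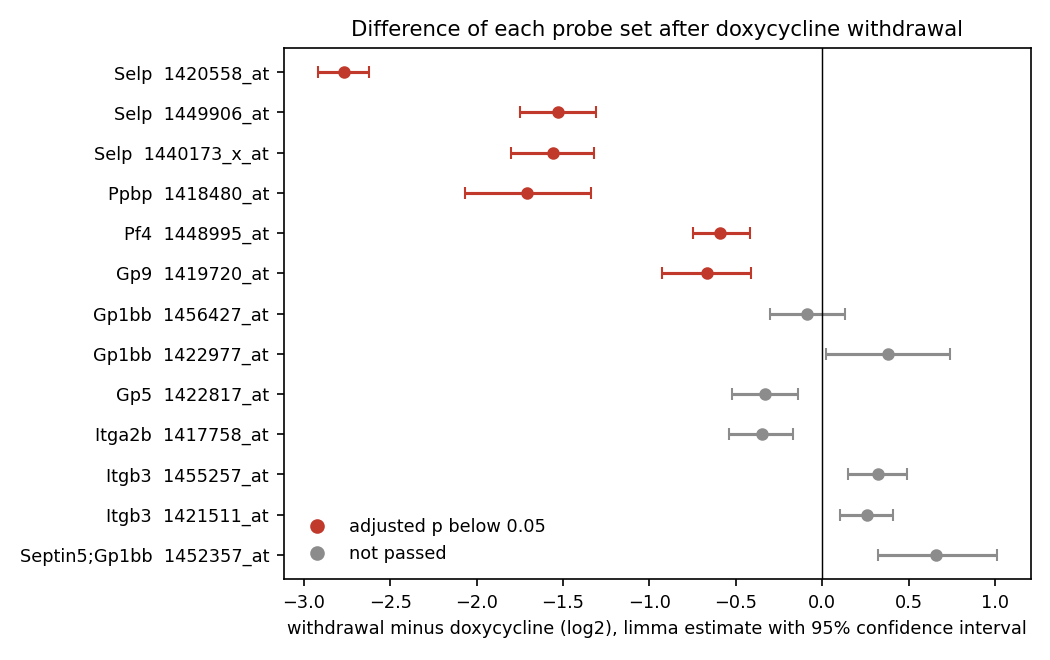
Withdrawal minus doxycycline (log2) for each member probe set and, in the last row, the probe set with Septin5 and Gp1bb as symbols, with 95% confidence intervals from limma that are not adjusted for the number of probe sets. Red marks an adjusted p below 0.05, and the 6 red intervals all lie below 0.

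The integrin chains had differences of opposite sign, and neither passed. Itga2b, the alpha chain, was the brightest member, with levels of 9.77, 9.79 and 9.65 after withdrawal, against 9.99, 10.17 and 10.11 under doxycycline. Its groups were 0.20 apart, and the difference was -0.35 ± 0.08 (limma adjusted p = 0.0776, 95% interval -0.54 to -0.17). It passed with array weights (adjusted p = 0.0453), with trend and robust options (adjusted p = 0.0046) and above the median level (adjusted p = 0.0255), and in none of the 6 fits that left out 1 array.

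Itgb3, the beta chain, which also pairs with the alpha chain Itgav in other cells, read 8.39, 8.35 and 8.42 on probe set 1455257_at after withdrawal, against 7.96, 8.12 and 8.12 under doxycycline. The withdrawal arrays were all above the doxycycline arrays, by at least 0.23, and the difference was 0.32 ± 0.07 (limma adjusted p = 0.0851, 95% interval 0.15 to 0.49). Probe set 1421511_at read 5.85, 5.85 and 5.77, against 5.60, 5.61 and 5.50 under doxycycline, again with no overlap (0.26 ± 0.07, limma adjusted p = 0.132). The mean of both Itgb3 probe sets differed by 0.29 ± 0.05 and passed (limma adjusted p = 0.027). With trend and robust options 1455257_at also passed (adjusted p = 0.0156), and above the median level both did.

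Within arrays, the log2 value of Itga2b minus that of Itgb3 (1455257_at) lay between 1.22 and 1.43 after withdrawal and between 1.99 and 2.04 under doxycycline. The change of -0.67 was larger than the SD of either group (0.11 and 0.03), and the two-sided exact permutation test over the 6 arrays gave p = 0.1, the smallest it can give. Of the 12 member probe sets, 8 had all withdrawal arrays below all doxycycline arrays and 2 had them above, while 10.7% and 10.2% of all probe sets did so.

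**Figure D3:**
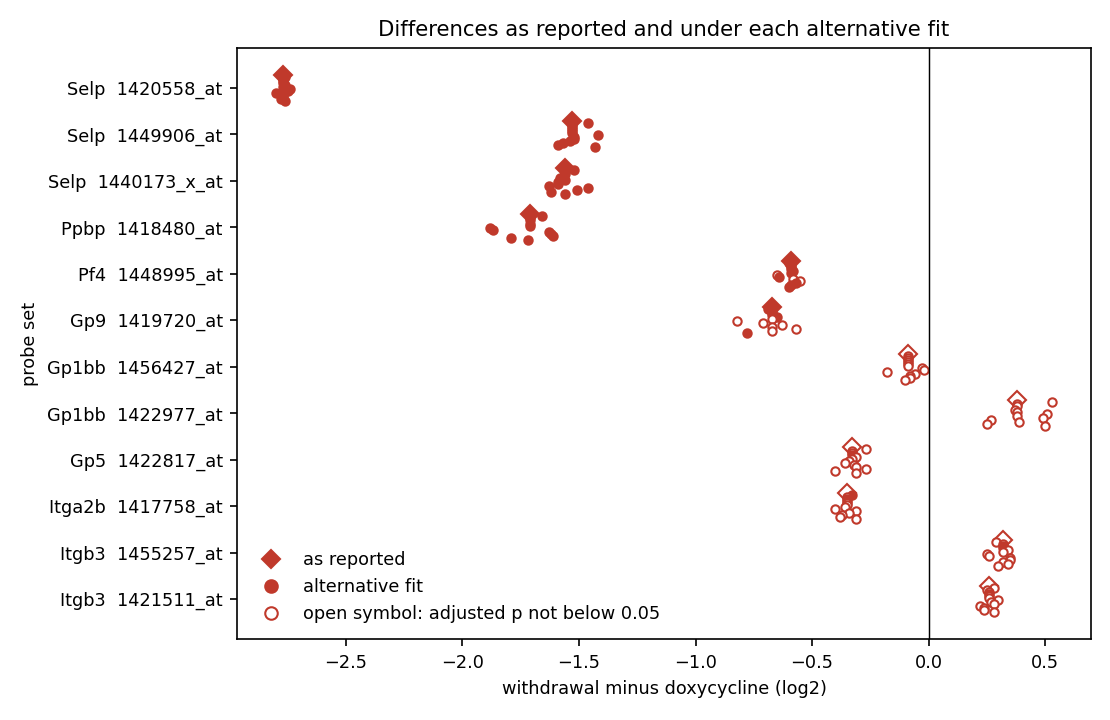
Withdrawal minus doxycycline (log2) of each member probe set as reported (diamonds) and in each alternative fit of that probe set (circles), filled where the adjusted p was below 0.05. The Selp and Ppbp symbols are all filled, those of Gp9 and Pf4 are mixed, and no probe set changes sign among the fits drawn, which leave out the averages over the probe sets of a gene.

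The labelled cell type was checked on marker genes. Ptprc, the common leukocyte antigen, was at 12.46 after withdrawal and 12.61 under doxycycline, and Mpo, the myeloperoxidase gene, at 14.44 and 14.12. Of the progenitor markers, Kit was at 9.55 and 9.29 (0.26 ± 0.10, not passed) and Cd34 at 7.41 and 7.91 (-0.51 ± 0.10, limma adjusted p = 0.0463). Of 10 progenitor markers 1 was lower, Cd34, and 1 higher, Cebpa, a transcription factor of granulocytes (0.74 ± 0.07, limma adjusted p = 0.00307). At an unadjusted p below 0.05, 1 of these markers was lower and 5 were higher, against 16.3% of all genes in either direction. Their median difference was 0.15, against 0.01 over all genes. With 1 array left out, 0 passed as lower in 5 of 6 fits, and 1 passed as higher in all 6. With both arrays that stood apart left out, 0 were lower and 0 higher. Of 13 endothelial genes, another source of P-selectin, 0 passed in limma in either direction. An unadjusted p below 0.05 was found for 1, against 16.3% of all genes. Their summed log2 levels ran from 66.5 to 67.9 after withdrawal and from 65.9 to 66.9 under doxycycline. Of these 13 genes, 8 lay below the median level of all probe sets in both groups. Cdh5, Tek and Emcn were near the floor, at 3.61, 3.33 and 3.39 after withdrawal and 3.68, 3.17 and 3.49 under doxycycline. Vwf, also on this list, was brighter, at 7.76 after withdrawal and 7.80 under doxycycline. Genes best known from megakaryocytes, the members included, were both bright and dim: of 31 measured, 10 lay below the median level of all probe sets in both groups. Thbs1, the thrombospondin gene, was at 12.32 after withdrawal and 12.45 under doxycycline, Vwf at 7.76 and 7.80, Tubb1, the platelet tubulin, at 5.09 and 5.35, and P2ry12, the receptor for ADP, at 3.29 and 3.17. In limma 4 of the 31 were lower, all of them members, and 1 was higher, P2rx1, against 1.57% and 1.20% of all genes. Lower and higher counts, members included, were 6 and 3 with trend and robust options and above the median level. They were 6 and 2 with averaged probe sets, and 3 and 0 with the replicate block. With 1 array left out, 2 to 4 of the 31 were lower and 0 higher.

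Markers of other cells were as follows. Of 10 stroma genes 0 passed in limma, with 1 at an unadjusted p below 0.05, and of 6 red cell genes 0 passed, with 2 lower and 1 higher at an unadjusted p below 0.05. Of 10 lymphoid genes 1 was lower, Ighm (-0.85 ± 0.07), and of 10 macrophage genes 2 were lower, Cd68 (-0.40 ± 0.06) and Csf1r (-0.38 ± 0.06). At an unadjusted p below 0.05, 2 lymphoid genes were lower and 1 higher, and 4 macrophage genes were lower and 0 higher. Of all genes 1.57% passed as lower, and 16.3% had an unadjusted p below 0.05, 8.26% of all genes being lower. The median difference was 0.07 for the lymphoid and -0.14 for the macrophage genes, against 0.01 over all genes. The count of lymphoid genes that passed as lower was 1 in all 6 fits that left out 1 array, and 0 when the probe sets of a gene were averaged. The same count for macrophage genes was 2 without withdrawal replicate 3. It was 0 without any other array, with the replicate block or with both arrays that stood apart left out. The summed log2 levels of the macrophage genes ran from 77.0 to 77.2 after withdrawal and from 78.1 to 78.8 under doxycycline. Their part in the falls of the platelet genes was not tested.

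Other genes of platelet biology numbered 161 and moved both ways. Of these 10 were lower and 5 higher, against 1.57% and 1.20% of all genes, and their median difference was 0.02, against 0.01 over all genes. With both arrays that stood apart left out, 2 were lower and 0 higher, and leaving out 1 array gave 4 to 7 lower and 1 or 2 higher.

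Ligands and counter-receptors of these proteins, and receptors of the chemokines, did not pass in limma for any of 12 measured genes. Of these 1 had an unadjusted p below 0.05, against 16.3% of all genes. In both groups 5 of the 12 lay below the median level of all probe sets, the fibrinogen genes among them. Fga was at 2.97 after withdrawal and 3.21 under doxycycline, Fgb at 3.77 and 3.64, and Fgg at 3.52 and 3.60. Such dim levels limit what these genes can show. Selplg, the leukocyte ligand of P-selectin, was bright at 10.69 after withdrawal and 10.54 under doxycycline (0.15 ± 0.11). Vwf, the ligand of the glycoprotein Ib complex, was at 7.76 and 7.80 (-0.04 ± 0.13), and Cxcr2, the receptor of Ppbp products, differed by -0.05 ± 0.07.

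Among 10 measured relatives of the selectin and the integrin, 1 fell. Itga4, an integrin alpha chain of leukocytes and progenitors, read 10.16, 10.16 and 10.10 after withdrawal, against 10.48, 10.54 and 10.50 under doxycycline (-0.37 ± 0.06, limma adjusted p = 0.0345) and did not pass in any of the 6 fits that left out 1 array. Itgav, the other alpha partner of the beta 3 chain, differed by -0.19 ± 0.07 and Itgb7 by 0.26 ± 0.07, and neither passed. Sele, the endothelial selectin near Selp in the genome, was near the floor at 3.51 after withdrawal and 3.44 under doxycycline.

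Other platelet receptors moved both ways, with 2 lower and 3 higher of 21 measured. Ptgir, the prostacyclin receptor, which restrains platelets, rose by 0.57 ± 0.06 (limma adjusted p = 0.0064). Ptger3, a receptor for prostaglandin E2, rose by 0.47 ± 0.06, and P2rx1, an ATP-gated channel, by 0.38 ± 0.06. F11r, a junctional adhesion molecule, differed by -0.63 ± 0.08 (limma adjusted p = 0.0128) and the tetraspanin gene Cd151, named after its value was seen, by -0.38 ± 0.07. Cd226 (0.21 ± 0.13) and P2ry1 (0.20 ± 0.07) did not pass. With 1 array left out, 0 or 1 of this list were lower and 1 or 2 higher.

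Other granule cargo did not pass in limma for any of 21 measured genes, with 2 lower and 2 higher at an unadjusted p below 0.05. The widest differences were those of Ccl5 (-0.33 ± 0.08), a chemokine gene, and F13a1 (-0.27 ± 0.07), which encodes a chain of coagulation factor XIII. Thbs1, bright in both groups, differed by -0.13 ± 0.08.

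Of 27 genes of granule assembly and release, 3 fell and 1 rose. Rab38, a small GTPase of lysosome-related organelles, read 10.14, 10.09 and 10.17 after withdrawal, against 10.96, 10.92 and 10.88 under doxycycline (-0.79 ± 0.06, limma adjusted p = 0.00167). Slc18a2, a vesicular monoamine transporter that mast cells use as well, differed by -0.70 ± 0.09. Snap23, a membrane fusion protein, differed by -0.38 ± 0.07 with an adjusted p just under the threshold. Dtnbp1, a subunit of a complex that builds lysosome-related organelles, rose by 0.43 ± 0.07. Rab27b (0.29 ± 0.07) and Vamp8 (-0.28 ± 0.07) did not pass. With 1 array left out, 1 or 2 of the list were lower and 0 higher.

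Among 26 genes of integrin signalling 0 passed in limma, and 1 was lower and 4 higher at an unadjusted p below 0.05. Stim1 (0.32 ± 0.08), a calcium sensor, and Fyn (-0.26 ± 0.11), a Src family kinase, had the widest differences. Of 16 cytoskeleton genes 1 fell, Mylk, the myosin light chain kinase, at 7.81, 7.66 and 7.55 after withdrawal, against 8.88, 8.98 and 8.70 under doxycycline (-1.18 ± 0.10, limma adjusted p = 0.00204), and 1 gene of the list was lower whichever array was left out and 0 with both arrays that stood apart left out. Tpm1 (-0.34 ± 0.07) and Tuba8 (0.29 ± 0.08) did not pass.

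Transcription factors of the megakaryocyte lineage showed 3 falls and 1 rise among 25 measured. Zfpm1, which binds GATA1, read 6.27, 6.46 and 5.84 after withdrawal, against 7.61, 7.81 and 7.81 under doxycycline, a difference of -1.56 ± 0.15. Tal1 (-0.66 ± 0.06) and Lmo2 (-0.42 ± 0.06), partners in the same protein complexes, fell too, and Ets1 rose by 0.55 ± 0.09. Of those that did not pass, Mrtfa (0.40 ± 0.15) and Gata1 (-0.36 ± 0.10) had the widest differences. Fli1, an ETS factor of platelet genes, differed by 0.18 ± 0.07, and Runx1 by -0.01 ± 0.08. With 1 array left out, 2 or 3 of the list were lower and 0 or 1 higher, and with both arrays that stood apart left out 1 was lower and 0 higher.

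**Figure D4:**
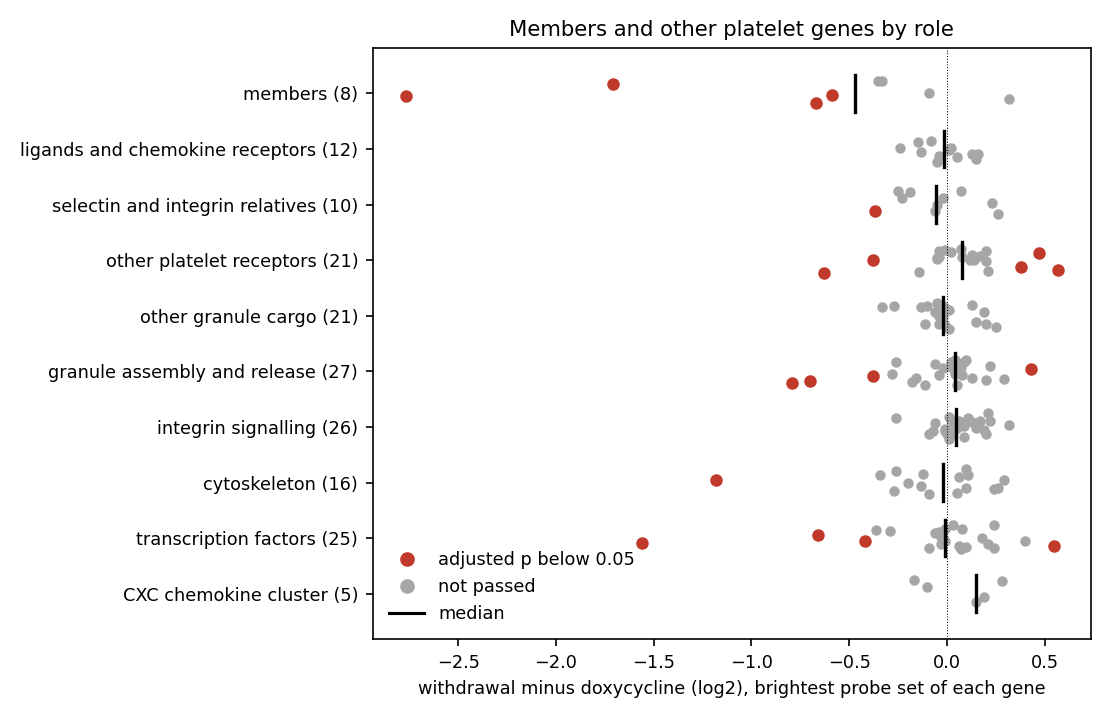
Withdrawal minus doxycycline (log2) of the brightest probe set of each gene, by role, with the number of genes in brackets, red for an adjusted p below 0.05 and a black line at the median. The members have a median of -0.47, and the medians of the other lists drawn lie between -0.05 and 0.15.

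The genomic neighbours of the 9 genes were read as well, taking up to 3 measured protein-coding genes on each side. Ppbp and Pf4 are each other's neighbours and both fell, and members were left out of the count. Of the 48 neighbours that are no members 0 passed in limma in either direction, and 4 were lower and 1 higher at an unadjusted p below 0.05, against 8.26% of all genes lower and 16.3% in either direction. F5, the coagulation factor gene beside Selp, was at 4.23 after withdrawal and 4.10 under doxycycline.

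The genes most like the 4 that fell, by Pearson's r over the 6 arrays among 8110 genes whose brighter group averaged 7 or more, are given as a description. The arrays form 2 groups of 3, so r reflects mainly the difference between the groups. For Selp they were Ctsj (r = 0.9997), S100a4 (r = 0.9997) and Aldh1a1 (r = 0.9989), which differed by -5.73, -1.15 and -2.40. For Ppbp they were Tnfsf13os (r = 0.9976), Rnf34 (r = 0.9970) and Ptprcap (r = 0.9949), and for Pf4 Ptprcap (r = 0.9974), Ighm (r = 0.9971) and Rnf34 (r = 0.9969). For Gp9 they were Rars (r = 0.9989), Ahcyl1 (r = 0.9959) and Nedd4 (r = 0.9914), with differences between -0.20 and -0.17.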

How the data were processed

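Total RNA of 6 samples was amplified as cDNA, labelled with biotin and measured on 1 array each, per the labels' protocols. The authors deposited log2 values, 1 for each probe set on each array, which come from RMA per the submitters' processing notes. Version and chip definition were not given in the sources used here. RMA equalises the distributions of the arrays, which would remove a shift of most transcripts, and it compresses differences near the floor. The number of arrays limits the precision.

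Of 45101 rows 64 control probe sets were left out. The platform annotation gave 1 symbol to 34945 of the remaining 45037, several to 932 and none to 9160. Groups came from the sample titles, and limma 3.58.1 (lmFit, eBayes; R 4.3.3) was run on all 6 arrays, with 4 residual and 3.54 prior degrees of freedom. Two-sided p-values were adjusted over all 45037 probe sets (Benjamini-Hochberg), and 0.05 was the threshold. Lists read each gene from its brightest probe set. Named were all members, up to 4 passed genes of a list by adjusted p and up to 2 with the widest difference that did not pass, and any gene of a list of up to 12. Thbs1, Fli1, Runx1, Cd151, Tubb1 and P2ry12 were named for their role after their values were seen. Members and lists were chosen with earlier results of these data known. Promoters and neighbours come from RefSeq, assembly GRCm38.p6. The fit was tested on simulated data. Alternatives were each array left out, a replicate block, a filter on dim probe sets, centring, repeated quantile normalization, trend and robust options, array weights, 4 arrays, plain probe set names and averaged probe sets of a gene.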

Additional observations from a re-analysis of the deposited data

How the results depend on the processing

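The differences of Selp and Ppbp kept their direction and passed in every alternative run. Those of Pf4 and Gp9 kept their direction, and their lost calls are given above. No member difference past the threshold changed sign, and that of Gp1bb 1456427_at, which did not pass, turned to 0.15 when both probe sets of the gene were averaged. Whether replicate numbers pair the samples is not known. Deviations of same-numbered arrays from their group means correlated at -0.304, 0.460 and -0.033, which cannot decide it with 3 arrays per group. With the replicate block 197 probe sets of the series were lower and 94 higher, and the call of Gp9 was lost (adjusted p = 0.0654).

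The count of lower and higher member probe sets was 6 and 0 as reported. The lower count was 7 with array weights and with trend and robust options, and 5 with the replicate block and with plain probe set names. It was 4 to 6 with 1 array left out, and 4 with both arrays that stood apart left out. With trend and robust options 1 was higher and above the median level 2, and averaging the probe sets of a gene gave 5 lower genes and 1 higher, Itgb3. The lower genes there included Gp5, Itga2b or both, because Gp1bb and Itgb3 were not lower. Ppbp, Selp 1440173_x_at and Gp1bb 1422977_at gave no value above the median level, because they are dimmer. Over the series, lower and higher counts were 530 and 356 as reported, 962 and 758 with array weights, 1389 and 1071 with trend and robust options, 1082 and 862 above the median level, 94 and 28 with both arrays that stood apart left out, and 173 to 346 and 88 to 256 with 1 array left out. Of calls, 59.8% were lower as reported and 62.1% after centring. Among the 161 other platelet genes, lower and higher counts were 10 and 5 as reported, 18 and 17 with trend and robust options, 16 and 11 above the median level, 6 and 1 with the replicate block, 2 and 0 without both arrays, and 4 to 7 and 1 to 2 with 1 array left out, and 8 were higher with array weights. The cause of these changes was not tested, except that fewer arrays or fewer probe sets were fitted where the setting says so. Dim levels after withdrawal limit what the sizes of Ppbp and of the dimmer Selp probe sets can show.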
